A study of Mus musculus with 22 samples.

Results

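Microglia, the resident immune cells of the brain, made up cluster 8 of the whole cells dissociated from the hypothalamus of obese ob/ob mice 5 days after FGF1 or vehicle entered the cerebral ventricle. The cells described here are those to which the deposited cell table gives that cluster number, 1870 of 54890 cells from 12 mice, and the authors set that number from gene expression in all cells. Of these microglia, 914 came from 6 mice that had received 3 µg of FGF1 (fibroblast growth factor 1) in a single intracerebroventricular (icv) injection, and 956 came from 6 mice that had received vehicle. All 12 mice were male, were 11 weeks old by the labels and carried the ob mutation of leptin on both alleles, so no lean mouse entered the comparison. The vehicle mice were pair-fed to the intake of the FGF1 mice, each library was made from 1 mouse, and the deposited batch column set 1 FGF1 mouse beside 1 vehicle mouse in each of 6 batches. The tissue was the mediobasal hypothalamus, dissociated with enzymes and mechanical force, and mRNA was counted as unique molecular identifiers (UMIs, 1 per captured molecule) by 10x 3′ sequencing.

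Microglia derive from the embryonic yolk sac, depend on signals through the receptor Csf1r, and survey the tissue with fine processes that carry the fractalkine receptor Cx3cr1 and the nucleotide receptor P2ry12. They tag and clear debris with complement and lysosomal proteases, and on injury, infection or dissociation they switch on chemokines and cytokines such as Ccl3, Ccl4, Il1a and Tnf. In the hypothalamus they lie beside neurons and astrocytes that sense nutrients and hormones, and they are known for changing with diet and obesity.

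The markers of microglia stood out in cluster 8. Cx3cr1 reached 1748 CPM (counts per 1e6 UMIs, here over all UMIs of the cluster), against 225 CPM in cluster 16 and at most 30.2 CPM in the other 18 clusters. Tmem119, a membrane protein used to tell microglia from other brain macrophages, stood at 635 CPM, against 29.4 CPM in cluster 16. C1qa, a chain of the first complement component, was at 3191 CPM, the growth factor receptor Csf1r at 1432 CPM and the lysosomal protease Ctss at 2578 CPM. Each of the 5 was higher in cluster 8 than in any other cluster, and in every mouse Cx3cr1 lay between 1188 and 2447 CPM. Border macrophages, which live in the meninges and around vessels, differ by Mrc1, Pf4 and Lyve1. Mrc1 was at 4.41 CPM in cluster 8 against 514 CPM in cluster 16, Pf4 at 3.31 against 945 CPM, and Lyve1 had 0 UMIs in 1870 cells, which allows a share of up to 0.160% of cells with a UMI.

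**Figure D1:**
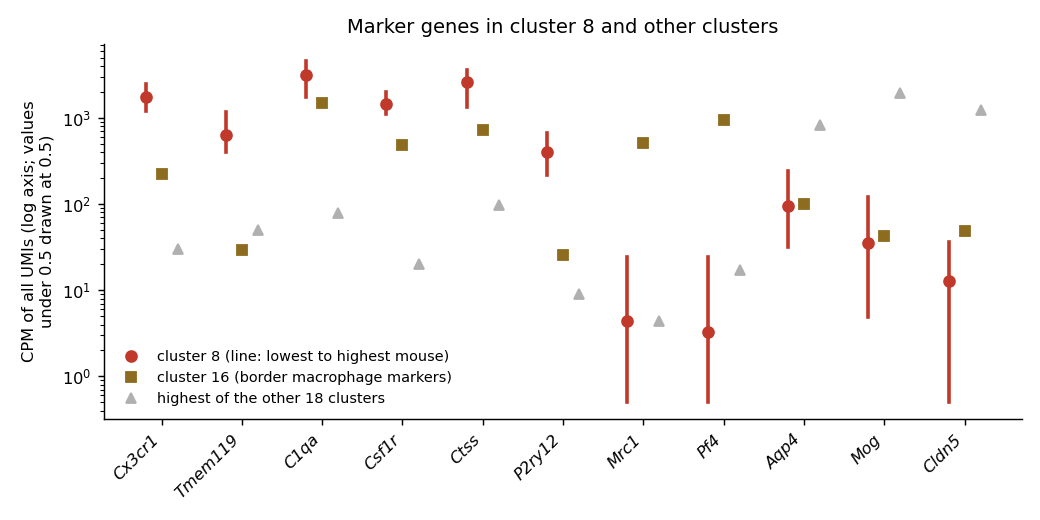
Levels of marker genes in cluster 8 (circles, with a line from the lowest to the highest of the 12 mice), in cluster 16 (squares) and in the highest of the other 18 clusters (triangles), in CPM of all UMIs on a log axis. The microglia genes from Cx3cr1 to P2ry12 are highest in cluster 8, and Mrc1 and Pf4 are highest in cluster 16.

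Among genes of at least 50 CPM in cluster 8, those with the largest ratio of cluster 8 to all other cells were mostly cytokines, chemokines and immune receptors. Il1a, the gene of interleukin 1 alpha, led with 400 CPM in microglia, a ratio of 333 to other cells. It was followed by Gpr84, a receptor for medium-chain fatty acids, at a ratio of 301, by the cytokine Osm at 280 and by Tnf at 275. Ccl4 was at a ratio of 215 and Ccl3 at 153, and the marker Cx3cr1 was at 167 and Tmem119 at 147. The first 20 also held the receptors Il10ra, Csf3r, Cd180 and P2ry6, the adhesion genes Selplg and Itgb2, and the signalling genes Rhoh, Rgs1 and Gna15, with Slc15a3 and Saa3. The macrophages of cluster 16 held several of these genes too, with Ccl3 at 913 CPM against 1821 CPM in microglia, Ccl4 at 1008 against 3928 CPM and P2ry6 at 124 against 175 CPM, while Il1a was at 11.8 CPM there. These ratios describe the cells that the clustering grouped and were not tested.

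Promoters of the genes of high ratio were read for the letters GAGGAA, the core that the myeloid factor PU.1 is known to bind, and for GGG and TTCC with 3 bases of any kind between them, letters typical of NF-kB sites. Both strands were searched, and a match of each may overlap because GAGGAA read on the opposite strand begins with TTCC. Of the 357 genes tested below that were at least 4 times higher in microglia than in all other cells, 267 matched a promoter of the RefSeq table, and GAGGAA stood in 34.8% of their 354 promoters over the 250 bases before the start, against 23.3% of all 32851 promoters. The NF-kB letters stood in 8.19% of the promoters of those genes and in 4.65% of all. A match is a description and not a binding site. Examples from RefSeq on GRCm38.p6 are shown, each written 5′ to 3′ on the strand of its gene with the matched letters in capitals: Ctss, a marker, from chr3:95526536-95526785 on the plus strand with its match 164 bases before the start, Ccl3, among the genes of highest ratio, from chr11:83649379-83649628 on the minus strand with its match 33 bases before the start, and Ccl9, the chemokine with the smallest p below, from chr11:83578637-83578886 on the minus strand with its match 35 bases before the start. Ctss and Ccl3 hold GAGGAA (in Ccl3 on the opposite strand) and Ccl9 holds the NF-kB letters, also on the opposite strand.
Ctss: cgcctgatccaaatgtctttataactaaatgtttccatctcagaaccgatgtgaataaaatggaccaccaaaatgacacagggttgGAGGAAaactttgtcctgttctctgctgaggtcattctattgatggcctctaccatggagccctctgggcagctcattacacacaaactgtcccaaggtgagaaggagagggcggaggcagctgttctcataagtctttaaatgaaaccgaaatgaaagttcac
Ccl3: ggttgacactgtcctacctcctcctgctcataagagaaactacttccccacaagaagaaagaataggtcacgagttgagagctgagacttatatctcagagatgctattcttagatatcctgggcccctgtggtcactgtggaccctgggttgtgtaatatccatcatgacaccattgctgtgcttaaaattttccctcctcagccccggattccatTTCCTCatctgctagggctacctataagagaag
Ccl9: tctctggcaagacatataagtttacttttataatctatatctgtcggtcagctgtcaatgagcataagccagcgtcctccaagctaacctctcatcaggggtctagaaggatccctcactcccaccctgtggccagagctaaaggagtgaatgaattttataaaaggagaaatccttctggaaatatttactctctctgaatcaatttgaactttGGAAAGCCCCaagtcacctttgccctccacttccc

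The microglia of a mouse numbered 40 to 371 cells, with a median of 1012.5 to 1844 UMIs per cell over the mice, and the 2720427 UMIs of the cluster split into 1372503 from FGF1 and 1347924 from vehicle mice. The median cell held 679 genes. The study states that cells over 20% mitochondrial or ribosomal UMIs were removed, but 851 of the microglia exceeded that limit by the percentages in the deposited table, 453 of them from FGF1 mice. The limit may have been applied to another measure than those percentages, so that the cells within it here need not be the ones the authors meant. A barcode sequence was shared with a microglial cell of another mouse in 6 cells. FGF1 mouse 6 and vehicle mouse 22, both of batch 3, stood apart from the others in the genes described next, and values without them are given for a number of the comparisons below.

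Microglia made up 1.65% to 11.98% of a mouse's cells with FGF1 (median 2.80%) and 1.92% to 5.51% with vehicle (median 2.40%). The groups overlapped, and the highest share belonged to FGF1 mouse 6. The mean share was 4.24% ± 3.84 (SD, n = 6) with FGF1 and 3.07% ± 1.45 (SD, n = 6) with vehicle, a difference of 1.16 percentage points that was smaller than the spread between mice (exact permutation test, two-sided, p = 0.684). Within batches the share was higher in the FGF1 mouse in 4 of 6. Without FGF1 mouse 6 the difference was -0.385 points (exact permutation test, p = 0.628), so its direction rested on that mouse. A share of dissociated cells depends on how many cells of every type survived the dissociation.

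**Figure D2:**
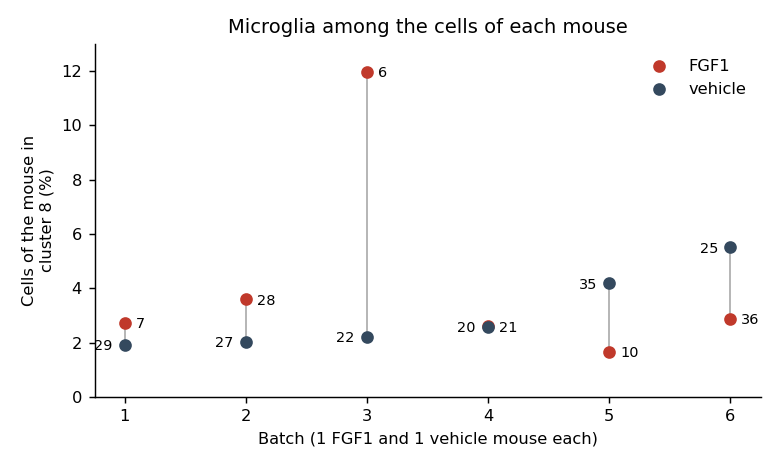
Percent of each mouse's cells that lay in cluster 8, by batch, with the FGF1 mouse (red) and the vehicle mouse (dark) of a batch joined by a line and labelled with the mouse number. The FGF1 mouse is higher in batches 1 to 4, with 2.59% in both mice of batch 4 to 3 digits, and lower in batches 5 and 6.

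Among the 7286 genes with a UMI in at least 2% of microglia, most varied from cell to cell no more than counting predicts, with a median ratio of observed to Poisson variance of 1.03, and 116 genes exceeded a ratio of 2. Saa3, an acute-phase serum amyloid, varied most, at a ratio of 116. It had a UMI in 7.38% of microglia, and 75.0% of its UMIs lay in 19 cells. In FGF1 mouse 6 it reached 5904 CPM and 39.2% of cells, and in the other 11 mice at most 217 CPM. Ccl5, a chemokine that attracts T cells and monocytes, stood at 1712 CPM in FGF1 mouse 6 and 699 CPM in vehicle mouse 22, and the other 10 mice lay between 0 and 321 CPM. Both genes thus marked a few cells, most of them in 1 or 2 mice.

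The same 2 mice differed from the rest in genes of antigen presentation, and FGF1 mouse 6 also in a gene of division. Cd74, the chaperone of MHC class II, had a UMI in 74.8% of the microglia of vehicle mouse 22 and in 31.5% of those of FGF1 mouse 6, against 0% to 12.2% in the other 10 mice. H2-Aa, a class II chain, followed with 39.8% and 16.4% of cells, against at most 3.03%. Top2a, a topoisomerase of dividing cells, had a UMI in 10.8% of cells in FGF1 mouse 6 and in at most 1.37% in the other mice, with vehicle mouse 22 at 0.813%. Markers of blood monocytes were also highest in that mouse, with Plac8 in 9.44%, Ly6c2 in 5.94% and Ccr2 in 2.80% of its cells. The summed level of the monocyte and granulocyte list, of which 6 of 7 genes were detected and S100a8 was at 0, was 468 CPM in FGF1 mouse 6 against 15.8 to 62.6 CPM in the other FGF1 mice and 0 to 51.1 CPM in vehicle mice. The part of those cells in the values of FGF1 mouse 6 was not tested.

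**Figure D3:**
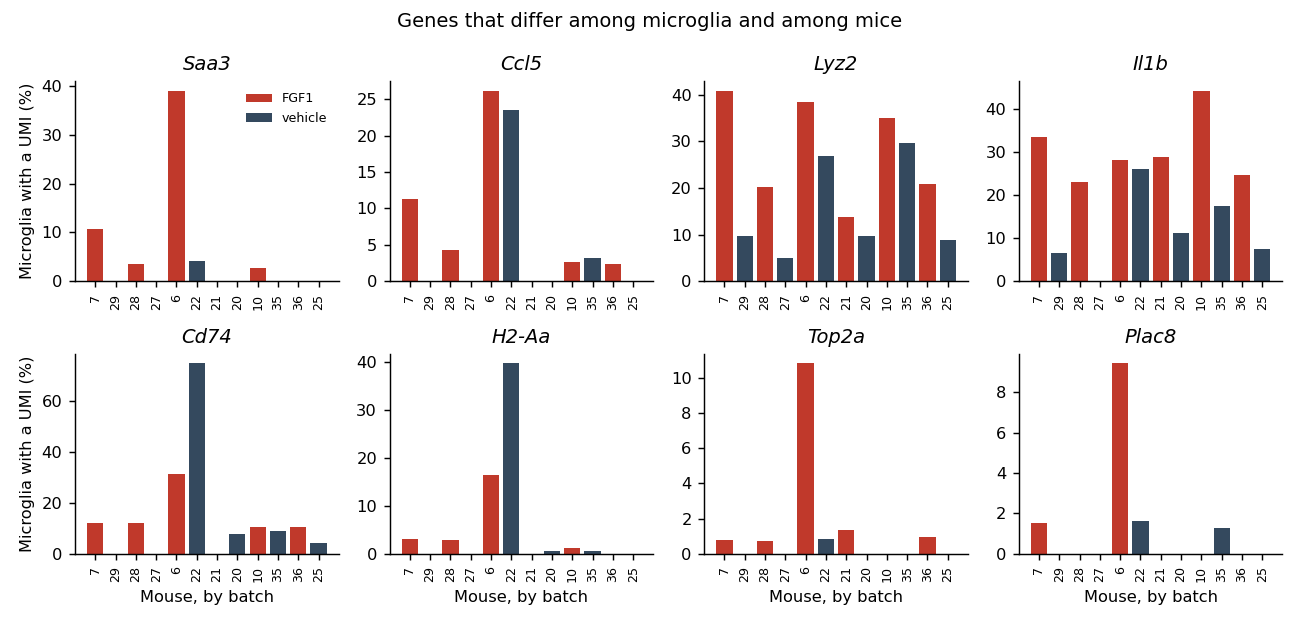
Percent of the microglia of each mouse with at least 1 UMI of 8 genes, before any thinning to equal depth, with mice in batch order (FGF1 red, vehicle dark). Saa3, Top2a and Plac8 are highest in FGF1 mouse 6, Cd74 and H2-Aa in vehicle mouse 22, and Ccl5 in both.

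Some of the other highly variable genes were higher in other cell types. Ptgds, a prostaglandin synthase of oligodendrocytes and meningeal cells, was at 893 CPM in microglia and at 49574 CPM in cluster 12. Its level in microglia ranged from 32.8 to 2477 CPM over the mice. Among genes of macrophages, Ccl4 was detected in 65.4% of microglia and Ccl3 in 59.6%, and Lyz2, a lysozyme that shares sequence with its neighbour Lyz1 so that its reads are uncertain, in 22.0%. Lyz2 was at 378 CPM, against 3293 CPM in cluster 16. The first 20 also held Malat1, 6330403K07Rik, Gm26917, Actb, Cst3, Tmsb4x, Nnat, S100a6, Cxcl10, Ccl12, Apoe, C3 and Gfap.

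At equal depth, after each cell was thinned to 800 UMIs (907 FGF1 and 942 vehicle cells, with 7 and 14 shallower cells left out), Cx3cr1 was detected in a median of 75.8% of cells per mouse with FGF1 and 71.2% with vehicle. Il1a was detected in 17.0% to 52.0% of cells with FGF1 (median 27.4%) and in 12.7% to 33.6% with vehicle (median 15.8%), and the groups overlapped. Il1b, the inducible interleukin 1, was detected in 17.7% to 32.5% of cells with FGF1 (median 19.2%) and in 0% to 16.4% with vehicle (median 6.36%). The groups did not overlap for Il1b, but the thinning was a single random draw. How many of all genes would show no overlap at this depth was not counted. Before thinning the Il1b medians were 28.4% and 9.38%, and the groups overlapped, with vehicle mouse 22 at 26.02% and the lowest FGF1 mouse at 23.02%. In vehicle mouse 27, 0 of 40 cells had a UMI of Il1b, which allows a share of up to 7.50%. The background from free RNA was small for these genes, since Il1b was detected in 0.1% of 2000 cells of cluster 1 and in 0.05% of 2000 cells of cluster 2 at the same depth. Tnf was detected in a median of 23.7% of cells with FGF1 and 22.0% with vehicle.

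To ask what FGF1 changed in microglia, UMI counts were summed per mouse, and 2676 genes passed the filter on low counts. In such sums, fewer cells that carry a transcript and less of it per cell cannot be told apart. The filter asked for enough counts in 6 mice, so a gene near its cutoff could pass on the group where it was higher. At a false discovery rate (FDR) of 0.05 in edgeR's quasi-likelihood test, 7 genes passed, 0.262% of those tested, and all 7 were lower with FGF1. With batch as a term in the model, which pairs the FGF1 and the vehicle mouse of a batch, 14 genes passed, 4 higher and 10 lower, and 5 of the 7 were among them. At an unadjusted p under 0.05 stood 341 genes, 129 higher and 212 lower. The groups of mice did not overlap for 19 genes, 0.71% of those tested. Levels below are CPM over the tested genes after TMM scaling (a correction for library composition), and fold changes are FGF1 over vehicle on the log2 scale.

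The gene with the smallest p was Gstm5, a mu-class glutathione S-transferase, one of the enzymes that couple toxic compounds to glutathione. Its level was 77.8 to 181 CPM with FGF1 (median 128) and 236 to 379 CPM with vehicle (median 295), with no overlap. It fell by 1.14 on the log2 scale (SE 0.203, edgeR adjusted p = 0.0211). Gstm1, of the same enzyme family and on the same chromosome, was at 77.8 to 226 CPM (median 175) against 305 to 473 CPM (median 346), again with no overlap, and fell by 1.07 (SE 0.209, edgeR adjusted p = 0.0244). The genes lie at chr3:107895821-107898686 and chr3:108012255-108017973 (GRCm38), and Gstm5 overlaps the antisense gene 4933431E20Rik. Gstm5 and Gstm1 are related in sequence, and whether reads were split between them was not tested.

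The long noncoding RNA 2900052N01Rik (chr9:46913493-46927366) showed the largest of the 7 changes. It was at 0 to 48.0 CPM with FGF1 (median 37.5) and 73.3 to 157 CPM with vehicle (median 115), with no overlap, and fell by 1.67 (SE 0.323, edgeR adjusted p = 0.0244). Ndufa5, a subunit of complex I of the respiratory chain, was at 156 to 242 CPM (median 203) against 289 to 506 CPM (median 353). It fell by 0.93 (SE 0.192, edgeR adjusted p = 0.0310), and its groups did not overlap. Zwint, a kinetochore protein that neurons also express, was at 77.6 to 133 CPM (median 103) against 155 to 261 CPM (median 200). It fell by 0.99 (SE 0.218, edgeR adjusted p = 0.0468), with no overlap.

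Cldn10, a claudin of tight junctions that astrocytes express, was at 24.2 to 122 CPM with FGF1 (median 64.5) and 118 to 229 CPM with vehicle (median 180), and fell by 1.37 (SE 0.275, edgeR adjusted p = 0.0269). Its highest FGF1 mouse reached above the lowest vehicle mouse. All 7 genes were lower in the FGF1 mouse in 6 of 6 batches. The call on each depended on single mice, since none of the 7 passed without FGF1 mouse 7 or 21 or without vehicle mouse 20, 25, 27 or 29, while their fold changes stayed below 0 in every alternative that tested them. Among the cells within the 20% limits named above, edgeR called 0 of 1204 genes, with 180 at an unadjusted p under 0.05.

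**Figure D4:**
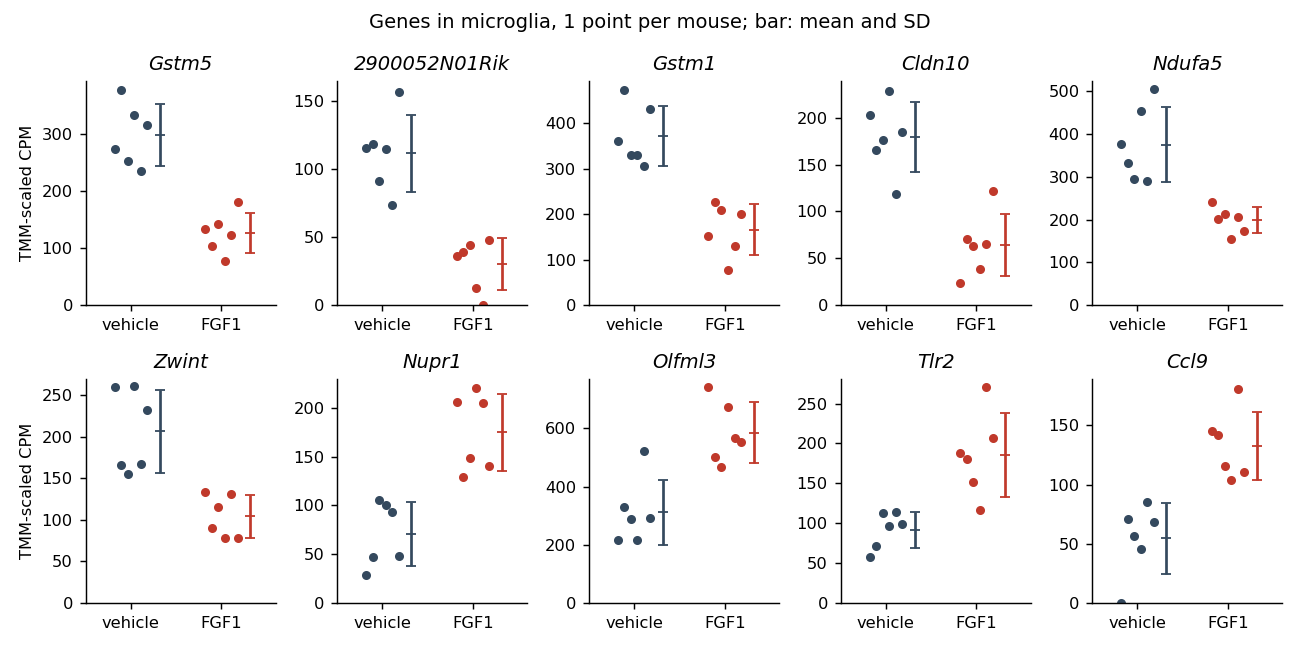
Level of 10 genes in the microglia of each mouse, in TMM-scaled CPM over the tested genes, with 1 point per mouse and a bar at the mean with its SD (n = 6 per group). The first 6 genes, from Gstm5 to Zwint, are lower with FGF1 and passed the test, and Nupr1, Olfml3, Tlr2 and Ccl9 are higher with FGF1 and did not pass.

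None of the 7 genes stood out in microglia by its level. Only 2900052N01Rik was as high in cluster 8 as in all other cells, at a ratio of 1.02, and the other 6 lay between 0.433 for Cldn10 and 0.878 for Zwint. Cldn10 was at 103 CPM of all UMIs in microglia and at 803 CPM in cluster 1, where astrocyte markers are high. A UMI of at least 1 of 5 astrocyte markers (Aldoc, Aqp4, Gja1, Slc1a2, Slc1a3) was present in 68.5% to 85.6% of microglia with FGF1 (median 80.0%) and in 87.1% to 96.8% with vehicle (median 94.1%). The groups did not overlap (exact permutation test, two-sided, p = 0.002165, the smallest p that 6 against 6 mice allow). The summed level of the astrocyte list, with 7 of 7 genes detected, was 1802 to 3621 CPM of all UMIs with FGF1 and 2572 to 4628 CPM with vehicle, and was lower in the FGF1 mouse in 5 of 6 batches. Of its 6 tested genes 5 were on the lower side and 1 on the higher, each at an unadjusted p under 0.05. The exception among the tested genes was Aqp4, the water channel of astrocytes and 1 of the 5 markers, at 48.4 to 281 CPM with FGF1 (median 128) and 36.6 to 118 CPM with vehicle (median 78.3), a difference of 1.202 (SE 0.373, edgeR adjusted p = 0.168). Gfap, the member that was not tested, was also higher on average, at 107 CPM of all UMIs with FGF1 (SD 103) and 45.3 CPM with vehicle (SD 40.2). The neuron list, 6 of 6 detected, was at 186 to 501 CPM against 341 to 919 CPM, and the oligodendrocyte list, 7 of 7 detected, at 2434 to 5724 CPM against 2480 to 8460 CPM. The part of RNA from these other cells in the 7 calls was not tested by a model of free RNA.

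In other clusters from the same mice the share of cells with astrocyte UMIs was given at the median of each group and not tested. It was lower with FGF1 in 12 of the 18 other clusters that held cells of both groups, equal in 2 and higher in 4, of which clusters 18, 19 and 20 had 1 or 2 mice in a group and cluster 10 stood at 99.7% against 99.3%. In cluster 3, which held the highest level of the endothelial list, the median share was 82.1% with FGF1 and 93.8% with vehicle, and in the oligodendrocytes of cluster 2 it was 84.0% and 92.8%. The mean summed level of astrocyte UMIs was lower with FGF1 in 14 of the 18 clusters, and in 12 of the 15 with at least 4 mice in each group. It was 0.641 times the vehicle level in cluster 3, 0.977 times in cluster 2 and 1.08 times in the macrophages of cluster 16, where the medians had the opposite order, at 2844 CPM with FGF1 and 3003 CPM with vehicle. Several of the 7 genes were also lower in other clusters, whose values come from the same 12 mice. 2900052N01Rik fell there too, with log2 changes of -1.47 in cluster 1 (edgeR adjusted p = 0.0116), -1.69 in cluster 2 (edgeR adjusted p = 0.01065) and -1.96 in cluster 3 (edgeR adjusted p = 0.0160). Gstm1 changed by -0.60 in cluster 1 (edgeR adjusted p = 0.0153), by -0.53 in cluster 2 (edgeR adjusted p = 0.0211) and by -0.47 in cluster 3 (edgeR adjusted p = 0.0399). Gstm5 changed by -0.42, -0.50 and -0.62 in clusters 1, 2 and 3 (edgeR adjusted p = 0.316, 0.0264 and 0.0233). Ndufa5 changed by -0.39, -0.56 and -0.54 there (edgeR adjusted p = 0.251, 0.0211 and 0.0236). Zwint changed by -0.43, -0.43 and -0.48 and was not called (edgeR adjusted p = 0.320, 0.294 and 0.222). Cldn10 fell by 1.10 in cluster 3 (edgeR adjusted p = 0.0135) and differed by 0.14 (SE 0.169, edgeR adjusted p = 0.849) in cluster 1, where its level was highest.

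Some selections of cells and genes were added after the data were seen, and they left most of the 7 genes untested. Among the 245 microglia with no UMI of the 5 astrocyte markers, 261 genes could be tested and edgeR called 0 of them, with 12 at an unadjusted p under 0.05, and 0 of the 7 called genes were among those 261. Among the 1261 genes at least as high in microglia as in other cells, edgeR called 0, with 125 at an unadjusted p under 0.05, and 1 of the 7 called genes was in that selection. The balance of fold changes differed by the ratio to other cells. Of the 357 genes at a ratio of 4 or more, 52 were higher and 9 lower with FGF1 at an unadjusted p under 0.05, and their median fold change was 0.19. Of the 1397 genes at a ratio from 0.25 to 1, 17 were higher and 170 lower, with a median of -0.13, and 6 of the 7 calls lay among them. The median over all genes tested was -0.01. Scaling the libraries on the genes at a ratio of 4 or more, also chosen after the data were seen, moved that median to -0.19 and left 0 calls, with 346 genes at an unadjusted p under 0.05. That scaling shifted the fold changes by unlike amounts, and Cd74 moved from -1.47 to -1.39. Because it lowered the median of all genes, it gave no test of the direction of the 7 calls. Gstm5 was at -1.35 and Cldn10 at -1.58 on that scaling. Over the alternatives that tested them, Gstm5 ranged from -1.35 to -1.01 and Cldn10 from -1.68 to -1.18.

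**Figure D5:**
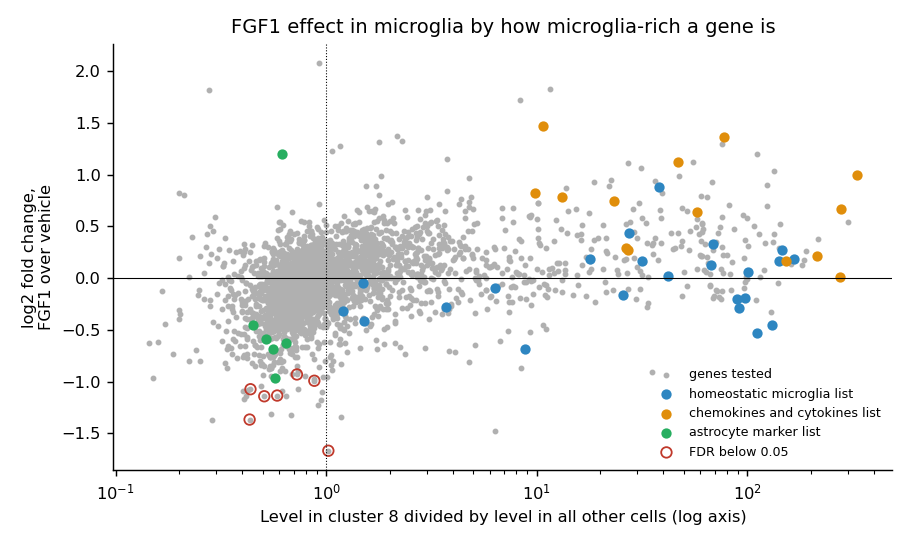
Log2 fold change (FGF1 over vehicle) of the 2676 genes tested in microglia, against the ratio of their level in cluster 8 to that in all other cells (log axis), with homeostatic genes blue, chemokines and cytokines orange, astrocyte markers green and the 7 called genes circled. The called genes lie at a ratio of 0.433 to 1.02, and the chemokines and cytokines lie at or above a fold change of 0, as 11 of 14 do when libraries are scaled on the genes of microglia.

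No gene was called higher in the fit of all 12 mice, and the 10 genes closest to that threshold are given as values. Nupr1, a small chromatin protein of the stress response, was at 129 to 220 CPM with FGF1 (median 177) and 28.9 to 105.5 CPM with vehicle (median 70.9), a log2 difference of 1.15 (SE 0.259, edgeR adjusted p = 0.0527). Tlr2, the receptor for bacterial lipoproteins, was at 117 to 271 CPM (median 184) against 57.8 to 114 CPM (median 97.4), a difference of 0.93 (SE 0.222, edgeR adjusted p = 0.0645). In both genes the groups did not overlap. Olfml3, a secreted protein that is a homeostatic marker of microglia, was at 468 to 744 CPM (median 560) against 215 to 521 CPM (median 291), a difference of 0.88 (SE 0.214, edgeR adjusted p = 0.0652). Ccl9, a chemokine for myeloid cells, was at 104 to 180 CPM (median 129) against 0 to 85.5 CPM (median 62.3), a difference of 1.12 (SE 0.281, edgeR adjusted p = 0.0798), with no overlap. Tlr2, Olfml3 and Ccl9 were each at least 18.7 times higher in microglia than in all other cells pooled, but not all were higher than in the macrophages of cluster 16, where Ccl9 was at 98.0 CPM of all UMIs against 79.8 CPM in microglia and Tlr2 at 88.2 against 119 CPM. All 4 genes were higher in the FGF1 mouse in 6 of 6 batches.

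The other 6 of these genes had log2 differences from 0.82 to 1.81. They were Tpm4 and Vim, both of the cytoskeleton, Rac2, a small GTPase of blood cells, S100a6, a calcium-binding protein, Fcgr2b, the inhibitory receptor for antibodies, and Bcl2a1d, an antiapoptotic gene with near-identical copies whose reads are uncertain. Rac2, Fcgr2b and Bcl2a1d stood at ratios of 36.3, 22.6 and 111 to all other cells pooled, and Vim and S100a6 at 0.276 and 0.200. Fcgr2b was nonetheless higher in the macrophages of cluster 16, at 159 CPM of all UMIs against 120 CPM in microglia, and Rac2 was at 86.3 against 131 CPM. On the lower side the 10 genes closest to the threshold had differences from -1.32 to -0.73. Agt, Gm3764 and Atp1b2 are genes of high level in cluster 1, Stmn2, Camk2n1, Pnmal2, Ahi1 and Ly6h are known from neurons, and Etv1 is a transcription factor downstream of growth factor signals. Txnip, an inhibitor of thioredoxin that responds to glucose and glucocorticoids, was the one of the 10 at a ratio above 2, and differed by -0.73 (SE 0.187, edgeR adjusted p = 0.0914).

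Other tools moved some of these genes across the threshold. DESeq2 called 18 genes, 7 of them higher, and the 7 were Nupr1, Olfml3, Ccl9, Tlr2, S100a6, Rplp0 and Bcl2a1a. With batch as a term edgeR called Vim, Nupr1, B2m and P2ry6 higher. B2m, the light chain of MHC class I, was at 2402 to 5617 CPM with FGF1 (median 2964) and 1171 to 4479 CPM with vehicle (median 1417), was higher in the FGF1 mouse in 6 of 6 batches, and rose by 0.89 in that fit (SE 0.199, edgeR adjusted p = 0.0371). P2ry6, the receptor for uridine diphosphate that triggers phagocytosis, was at 168 to 582 CPM (median 283) against 0 to 196 CPM (median 146) and rose by 1.11 in that fit (SE 0.256, edgeR adjusted p = 0.0467).

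Without the 2 mice of batch 3, an alternative chosen after the data were seen, edgeR called 31 genes, 19 higher and 12 lower, and all 7 genes of the full fit were among them. The smallest p belonged to Il1a and to Cd83, a membrane protein of activated antigen-presenting cells. In the 5 remaining FGF1 mice Il1a was at 520, 549, 959, 1164 and 717 CPM, and in the 5 vehicle mice at 260, 237, 329, 322 and 243 CPM, so the groups did not overlap. It rose by 1.46 in that fit (SE 0.231, edgeR adjusted p = 0.00286), and over all 12 mice it differed by 1.00 (SE 0.290, edgeR adjusted p = 0.125). In batch 3 the order was the opposite, with 369 CPM in FGF1 mouse 6 and 682 CPM in vehicle mouse 22. Cd83 rose by 1.38 without batch 3 (SE 0.224, edgeR adjusted p = 0.00286) and differed by 0.82 over all mice (SE 0.377, edgeR adjusted p = 0.389), with 449 CPM in FGF1 mouse 6 and 1456 CPM in vehicle mouse 22.

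Il1b rose by 1.93 without batch 3 (SE 0.407, edgeR adjusted p = 0.0451) and differed by 1.37 over all mice (SE 0.493, edgeR adjusted p = 0.256). B2m rose by 1.02 without batch 3 (SE 0.207, edgeR adjusted p = 0.0168) and differed by 0.78 over all mice (SE 0.351, edgeR adjusted p = 0.383). Tlr2, Nupr1, Olfml3, Tpm4 and Vim also passed in that fit. Genes called higher in it also included Bcl2a1a, Rab20, Rnf149, Arl5c, Pim1, Trib1, Rilpl2, Sowahc and Lgals3bp, and the 5 new genes called lower were Stmn2, Atp1b2, Etnppl, Fads1 and Txnip. Leaving out vehicle mouse 22 alone gave 40 calls, leaving out FGF1 mouse 6 alone gave 3, and leaving out vehicle mouse 35, of another batch, gave 60.

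Chemokines and cytokines, the signals by which microglia call other immune cells, were 14 of 14 on the higher side with FGF1, with a median log2 difference of 0.70, against a median of -0.01 and 1303 of 2676 genes on the higher side over all genes. The list had 21 genes in the file, of which these 14 were tested. Genes at a ratio of 4 or more to other cells leaned higher as a class, with 261 of 357 on the higher side and a median of 0.19. The part of that lean in the values of this list and of those below was not tested. Calls given for the lists from here on come, unless stated, from the edgeR fit of all 12 mice with the filter on low counts and without batch as a term. None of the 14 passed in it, 6 stood at an unadjusted p under 0.05, and DESeq2 called Ccl9. Ccl2, which draws monocytes, was at 181 to 493 CPM with FGF1 (median 281) and 139 to 277 CPM with vehicle (median 184), a difference of 0.74 (SE 0.240, edgeR adjusted p = 0.178). Ccl12 was at 775 to 1322 CPM (median 1140) against 355 to 1020 CPM (median 633), a difference of 0.64 (SE 0.218, edgeR adjusted p = 0.199). The groups overlapped in both. Of the other members among the 20 genes of highest ratio to other cells, Osm differed by 0.67 (SE 0.581), Ccl4 by 0.21 (SE 0.224), Ccl3 by 0.16 (SE 0.240) and Tnf by 0.01 (SE 0.228). Scaled on the genes of microglia, the list's median was 0.56 and 11 of 14 were on the higher side.

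Genes of the NF-kB pathway and of inflammatory feedback showed a median of 0.34, with 13 of 15 on the higher side, 5 at an unadjusted p under 0.05 and 0 called by edgeR or DESeq2. Cd14, the coreceptor for endotoxin, was at 127 to 447 CPM with FGF1 (median 240) and 0 to 187 CPM with vehicle (median 137), a difference of 0.99 (SE 0.343, edgeR adjusted p = 0.211). Gadd45b differed by 0.72 and Socs3, the feedback inhibitor of cytokine receptors, by 0.49, with edgeR adjusted p of 0.309 and 0.322. Phagocytic and pattern receptors, with Tlr2 and Fcgr2b, had a median of 0.33, with 11 of 15 on the higher side. That share was near the 261 of 357 among all genes at a ratio of 4 or more. Fcer1g, the signalling chain of antibody receptors, was at 910 to 2016 CPM against 755 to 1401 CPM, a difference of 0.58 (SE 0.197, edgeR adjusted p = 0.192). In that list DESeq2 called Tlr2 alone. Scaled on the genes of microglia, the medians of the 2 lists were 0.10 and 0.12, with 10 of 15 and 9 of 15 genes on the higher side.

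Homeostatic genes, by which resting microglia are known, were split, with 11 of 23 on the higher side, a median of -0.05 and 0 called by edgeR. Cx3cr1 was at 1614 to 2903 CPM with FGF1 (median 2417) and 1401 to 2721 CPM with vehicle (median 1980), a difference of 0.19 (SE 0.178, edgeR adjusted p = 0.734). Tmem119 differed by 0.27 (SE 0.219), Csf1r by 0.05 (SE 0.163) and P2ry12 by -0.20 (SE 0.253), with edgeR adjusted p from 0.678 to 0.935. For these genes the groups overlapped. Sall1, the transcription factor that maintains microglial identity, was lower in the FGF1 mouse in 6 of 6 batches, at 107 to 246 CPM (median 185) against 260 to 361 CPM (median 275), with no overlap, and differed by -0.68 (SE 0.203, edgeR adjusted p = 0.125). Olfml3 had the opposite sign and was called higher by DESeq2. The list's median ranged from -0.31 to 0.11 over 24 alternatives and was above 0 in 6 of them, which were DESeq2, no low-count filter and the fits without batch 3, FGF1 mouse 28, FGF1 mouse 6 or vehicle mouse 35. The lowest value came from scaling on the genes of microglia, with 4 of 23 on the higher side.

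Of 12 complement genes in the file 8 were tested. All 8 were on the higher side, with a median of 0.44, 3 at an unadjusted p under 0.05 and 0 called by edgeR or DESeq2. C1qa was at 3377 to 5599 CPM with FGF1 (median 4578) and 2018 to 5293 CPM with vehicle (median 2988), a difference of 0.44 (SE 0.195, edgeR adjusted p = 0.335). C1qb and C1qc, the other chains of the same protein, differed by 0.52 (SE 0.195) and 0.49 (SE 0.185), and C3ar1, the receptor for a fragment of complement C3, by 0.71 (SE 0.376). Vehicle mice reached into the range of FGF1 mice in all 4 genes. Scaled on the genes of microglia, the median was 0.29 and 7 of 8 genes were on the higher side.

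Lysosomal genes, which digest what microglia take up, were 25 of 27 on the higher side with a median of 0.22, 7 of them at an unadjusted p under 0.05 and higher, 1 at such a p and lower, and 0 called by edgeR or DESeq2. Npc2, a carrier of cholesterol out of lysosomes, was at 678 to 1246 CPM with FGF1 (median 877) and 426 to 900 CPM with vehicle (median 499), a difference of 0.66 (SE 0.208, edgeR adjusted p = 0.168). Ctsz differed by 0.59 (SE 0.195), Grn, the growth factor precursor progranulin, by 0.52 (SE 0.182) and Ctsb by 0.50 (SE 0.173), while the marker protease Ctss differed by 0.36 (SE 0.194). In the list of genes that mark microglia near disease lesions, 14 of 15 were on the higher side with a median of 0.28 and 3 at an unadjusted p under 0.05. Lyz2 had the largest difference there, at 1.82 (SE 0.641, edgeR adjusted p = 0.252), with 194 to 1314 CPM against 47.3 to 338 CPM. FGF1 mice 6 and 7 stood at 1314 and 1215 CPM and the other 4 FGF1 mice between 194 and 353 CPM, near the vehicle range. The difference in Lyz2 was 1.43 without FGF1 mouse 6 (SE 0.634, edgeR adjusted p = 0.366) and 1.54 without FGF1 mouse 7 (SE 0.643, edgeR adjusted p = 0.473). It was 1.31 without microglia that held a UMI of a border macrophage marker (SE 0.528, edgeR adjusted p = 0.338). Scaled on the genes of microglia, the lysosomal median was 0.05 with 17 of 27 on the higher side, and that of the lesion list 0.13 with 9 of 15. Without batch 3 the medians were 0.37 and 0.35. Spp1, a hallmark of such cells, had a UMI in 1.07% of microglia and was not tested.

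In the lists of antigen presentation and of the interferon response, single mice set the spread. Of 10 antigen presentation genes 9 were on the higher side, with a median of 0.35 and 0 called, while edgeR with batch as a term called B2m higher. The exception was Cd74 at -1.47 (SE 1.29), for which vehicle mouse 22 stood at 2890 CPM and the other 5 vehicle mice between 0 and 86.9 CPM. Without vehicle mouse 22 Cd74 differed by 1.96 (SE 0.839, edgeR adjusted p = 0.312), the list's median was 1.00 with 10 of 10 on the higher side, and edgeR called 2 of its genes. The median was 0.77 without batch 3, also with 2 called, and 0.15 without FGF1 mouse 6, with 7 of 10 on the higher side. These calls stand beside many others, with 19 higher and 12 lower over 2628 genes without batch 3. The calls over all genes without vehicle mouse 22 are given above. Of 20 interferon genes in the file 5 passed the filter, which could favour members high in 1 group. All 5 were on the higher side, with a median of 1.37, which became 0.53 without FGF1 mouse 6. Ifitm3, which blocks entry of viruses, was at 1427 CPM in that mouse and at 82.0 to 732 CPM in the other 5 FGF1 mice, against 43.0 to 295 CPM with vehicle, a difference of 2.07 (SE 0.852, edgeR adjusted p = 0.349). The border macrophage list, with 5 of 9 genes detected and Cd163, Lyve1, Cbr2 and Clec4n at 0, was at 119 to 207 CPM of all UMIs with FGF1 and at 65.1 to 135 CPM with vehicle. Most of that sum was Stab1, at a mean of 116 CPM with FGF1 and 78.7 CPM with vehicle. Ms4a7 and F13a1 were also higher on average, while Mrc1 was at 3.15 against 7.1 CPM and Pf4 at 2.51 against 9.25 CPM. Mrc1 and Pf4 had 12 and 9 UMIs over all mice. Without the 41 microglia that held a UMI of 6 such markers, the antigen presentation median was 0.33, with 8 of 10 on the higher side. The interferon median was then 1.49, with 4 of 4 tested genes on the higher side, and 6 of the 7 calls remained. The part of macrophage RNA in cells with no UMI of these markers was not tested.

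Nuclear-encoded subunits of oxidative phosphorylation, which make ATP in mitochondria, lay on the lower side in 44 of 49 genes, with a median of -0.35. At an unadjusted p under 0.05 stood 15 of them, all lower, and edgeR called 0 of the 49. Ndufa5, the complex I subunit that passed the test above, is not on this list. Cox6c, of cytochrome c oxidase, was at 674 to 1113 CPM with FGF1 (median 889) and 1030 to 1999 CPM with vehicle (median 1245), a difference of -0.66 (SE 0.183, edgeR adjusted p = 0.0972). Ndufb9, of complex I, was at 230 to 460 CPM against 450 to 718 CPM, a difference of -0.69 (SE 0.194, edgeR adjusted p = 0.0972). None of the 49 was as high in microglia as in other cells pooled, with Cox6c and Ndufb9 at ratios of 0.710 and 0.721. Genes of such ratios leaned lower as a class. Of the 1397 tested genes at a ratio from 0.25 to 1, 947 were on the lower side, with a median of -0.13. The part of that lean in the values of this list was not tested. Over the 24 alternatives the list's median stayed between -0.54 and -0.23 wherever its genes were tested. The 11 genes of the mitochondrial genome were all on the lower side, with a median of -0.18 and 1 at an unadjusted p under 0.05. That median was -0.41 when scaled on the genes of microglia, -0.10 with DESeq2 (2 of 11 on the higher side) and -0.06 with no low-count filter (5 of 11 on the higher side). The median percent of mitochondrial UMIs per cell was 7.91% to 12.8% with FGF1 and 8.13% to 13.5% with vehicle. Ribosomal proteins were on the higher side in 62 of 77 genes, with a median of 0.16, which became -0.04 when libraries were scaled on the genes of microglia and 0.25 without batch 3. The median percent of ribosomal UMIs per cell was 18.9% to 23.5% with FGF1 and 13.2% to 21.2% with vehicle, and its part in that shift was not tested.

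The FGF pathway was sparsely detected in microglia. Of 16 listed receptor and feedback genes in the file, 5 passed the filter, all 5 were on the lower side with a median of -0.64, and edgeR called 0 of them, with 3 at an unadjusted p under 0.05. Fgfr3, the main FGF receptor of astrocytes, was at 36.3 to 161 CPM with FGF1 (median 111) and 143 to 284 CPM with vehicle (median 221), a difference of -0.87 (SE 0.282, edgeR adjusted p = 0.180), and its level in all UMIs was 0.547 times that of other cells. Dusp6, the phosphatase that limits ERK signalling (ratio to other cells 5.09), was at 85.4 to 246 CPM (median 187.5) against 205 to 338 CPM (median 241), a difference of -0.64 (SE 0.232, edgeR adjusted p = 0.217). Etv1, with 143 UMIs, was at 12.96 to 77.47 CPM with FGF1 (median 34.53) and 63.29 to 105.2 CPM with vehicle (median 96.64). It differed by -1.14 (SE 0.293), and Spred1, an inhibitor of Ras signalling, by -0.29 (SE 0.209). The levels of Etv1 and Spred1 in all UMIs were 0.415 and 0.815 times those of other cells. Fgfr3 stood at 130.5 CPM of all UMIs in microglia and 817.5 CPM in cluster 1, and Etv1 at 52.57 CPM in microglia and 614.4 CPM in cluster 11. The part of RNA from other cells in these values was not tested. With a stricter filter of 10 counts in 6 mice, 4 genes of the list were tested. All 4 were on the lower side, with a median of -0.48. Glucocorticoid-responsive genes had 8 of 11 on the lower side with a median of -0.24, among them the metal-binding Mt1 at -0.60 (SE 0.211) and Mt2 at -0.59 (SE 0.218), both at ratios under 0.5 to other cells. The median of that list was -0.09 without batch 3, with 6 of 11 on the lower side, -0.11 without FGF1 mouse 6, and -0.46 when scaled on the genes of microglia, with 9 of 11.

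The remaining lists held 0 calls, though edgeR with batch as a term called P2ry6. Immediate early genes, which dissociation can induce, had a median of -0.02 with 8 of 19 on the higher side and 1 at an unadjusted p under 0.05. The direction of that list was unsteady, with a median of 0.17 and 14 of 19 higher without batch 3, 0.11 and 12 of 19 without FGF1 mouse 6, and -0.25 and 4 of 19 when scaled on the genes of microglia. Heat shock genes had a median of 0.13 with 0 at an unadjusted p under 0.05. Glycolysis genes stood at -0.01 and cell cycle genes at 0.09, each with 0 genes at an unadjusted p under 0.05, and lipid genes at 0.11 with 3. Genes of the TGF-beta pathway, which keeps microglia in their resting state, had a median of 0.31 with 8 of 9 on the higher side and 1 at an unadjusted p under 0.05, and scaled on the genes of microglia a median of 0.11 with 6 of 9. On that scaling the medians of the heat shock, lipid, cell cycle and purinergic lists were -0.05, -0.07, -0.06 and -0.12, and that of glycolysis was -0.22 with 2 of 11 higher. With batch 3 left out, the medians were 0.52 for TGF-beta, 0.20 for heat shock, 0.34 for lipid (7 genes tested), -0.12 for cell cycle, 0.01 for glycolysis and -0.01 for purinergic genes. Purinergic and ion channel genes, at a median of 0.05, held differences of either sign. P2ry6, described above, was the member with the smallest p.

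To ask whether microglia responded otherwise than the border macrophages of cluster 16, the difference between the FGF1 effects in the 2 clusters was tested in the 5 FGF1 and 4 vehicle mice with at least 10 cells of both. Of 2150 genes 2 passed, 0.093%, and both rested on few cells or mice. Saa3 had 2582 UMIs in the microglia of these FGF1 mice, nearly all in FGF1 mouse 6, and its effect was 8.52 higher on the log2 scale in microglia (SE 0.734, edgeR adjusted p = 1.87e-11), a call that was lost without FGF1 mouse 6 and without vehicle mouse 22. Ms4a7, a membrane gene of border macrophages, had 42 UMIs in microglia of FGF1 mice and 0 in those of vehicle mice. By mouse it stood at 34.6 CPM of all UMIs in FGF1 mouse 7, 36.6 in mouse 28, 60.9 in mouse 6 and 6.33 in mouse 36, and at 0 in FGF1 mice 21 and 10 as in each vehicle mouse. With the UMIs of a group pooled, the FGF1 level was 13.8-fold the 3 UMIs that a count of 0 over the vehicle group allows, and 7.60-fold without FGF1 mouse 6, which held most of the 42. The pooled ratio holds no counting error of the FGF1 side and no spread between mice, so it is not a lower bound. It rests mainly on 3 mice and does not hold for each FGF1 mouse. In cluster 16 it was at a median of 122 CPM with FGF1 and 273 CPM with vehicle. Its fitted difference between the clusters was 5.52 (SE 1.14, edgeR adjusted p = 0.0255). That value depends on how the fit treats a group at 0, and the call was also lost without FGF1 mouse 6 or without vehicle mouse 22.

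The same test against the astrocytes of cluster 1, in all 12 mice, called 8 of 5210 genes, 0.154%. Cluster 1 was not all of the astrocytes, since the summed astrocyte list was highest in cluster 4, which did not enter the test. Dusp1, a phosphatase of MAP kinases, was at a median of 481 CPM of all UMIs with FGF1 and 518 CPM with vehicle in microglia, and at 28.9 and 79.7 CPM in astrocytes. The effect was 1.40 higher in microglia (SE 0.276, edgeR adjusted p = 0.0131). Cldn10 went the other way, with medians of 54.7 and 145 CPM in microglia and 865 and 793 CPM in astrocytes, so that the difference between its effects was -1.41 (SE 0.285, edgeR adjusted p = 0.0131). Cd83 had medians of 1065 CPM with FGF1 and 466 CPM with vehicle in microglia and of 0.879 and 7.15 CPM in astrocytes, a difference in effect of 2.89 (SE 0.646, edgeR adjusted p = 0.0302) whose astrocyte side rests on 4 UMIs over the FGF1 mice and 68 over the vehicle mice.

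Ifrd1, Cdkn1a, Neat1 and Actb had positive differences of 1.46, 1.34, 1.02 and 0.99. In Dusp1, Neat1 and Actb the medians of microglia were closer between the groups than those of astrocytes. The number of cells of cluster 1 behind these values was 40 to 813 per FGF1 mouse and 423 to 2083 per vehicle mouse. The part of that difference in number in these values was not tested. When single mice were left out 1 to 17 genes passed, with the extremes without vehicle mouse 25 and without vehicle mouse 35.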

How the data were processed

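The deposited table held raw UMI counts per gene and cell, and a deposited cell table gave the cluster, mouse, batch and the percent of mitochondrial and ribosomal UMIs that the authors had computed. Per the labels and the study's methods, reads were aligned and counted with Cell Ranger 1.2 on the mouse genome GRCm38 (mm10), and the authors removed predicted doublets (Scrublet), cells outside their limits and neurons, then clustered with Seurat. No doublet caller was run again.

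Here UMI counts of cluster 8 were summed per mouse (50763 to 491630 UMIs) and fitted with edgeR 4.0.16 in R 4.3.3 (low-count filter, TMM, robust quasi-likelihood test, two-sided, Benjamini-Hochberg adjustment over all genes tested), after the code had been tested on simulated data. The differences between clusters were fitted in 1 model with the mouse as a block. DESeq2 1.42.0, RLE scaling, other filters, batch as a term, cells within the 20% limits, cells without macrophage UMIs and an FDR of 0.1 were alternatives, and each mouse was left out in turn. Shares of cells were compared by exact permutation over all splits of the mice (numpy 2.4.6). Intervals and limits on counts of 0 cover counting error only, and p-values measure the spread between mice. Reads of related genes or near-identical copies (Gstm1 and Gstm5, Lyz1 and Lyz2, Bcl2a1a and Bcl2a1d, Saa and H2 genes) may be split uncertainly.

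The cells and gene lists were chosen with earlier results of these data known. Genes were named if they were called, were among the 10 nearest to the threshold in a direction, were list members of smallest p (up to 4 a list) or defining members, or were among the 20 of highest ratio or variability. The antigen presentation, division and monocyte genes of batch 3, Ms4a7 and the other genes of the differences between clusters, and the genes called by an alternative alone were chosen after their values were seen. In 131 of the microglia the barcode sequence also occurred in another mouse. The other 10 samples of the series were not used here. Values of a few further genes, among them 1 of the 7 called genes, are not reported here.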

Additional observations from a re-analysis of the deposited data

Results flagged for a closer look

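In 16 of 114 groups of 6 mice, 1 mouse lay farther from the rest than Dixon's 95% limit allows. Chance flags about 1 in 20 groups, but 40 of the 114 came from the 20 genes chosen for their variability, for which that rate is no yardstick. Those 40 held 12 of the 16, and the other 74 groups held 4, near the 1 in 20 of chance. The 4 were the share of microglia of FGF1 mouse 6, the median UMIs of FGF1 mouse 10 and vehicle mouse 35, and the ribosomal percent of FGF1 mouse 7. FGF1 mouse 6 held the highest share of microglia at 11.98% (next 3.591%), and the highest FGF1 levels of Saa3 at 5904 CPM (next 217.3), Ccl5 at 1711.9 CPM (next 321), Gm26917 at 117.1 CPM, the complement gene C3 at 196.7 CPM and the astrocyte gene Gfap at 304.4 CPM. Vehicle mouse 22, of the same batch, held the highest vehicle levels of Saa3 at 90.87 CPM, Ccl5 at 698.6 CPM, C3 at 28.4 CPM, Nnat at 1283.5 CPM and the lipid carrier Apoe at 2964.6 CPM. Vehicle mouse 35 stood out by Tmsb4x, a binder of actin monomers, at 23842.1 CPM (next 8569.2) and by a median of 1809 UMIs per cell (next 1269). FGF1 mouse 10 stood out by a median of 1844 UMIs per cell (next 1361), FGF1 mouse 7 by a median of 23.46% ribosomal UMIs (next 20.35%) and FGF1 mouse 36 by Ptgds at 2477.4 CPM (next 657.9). The CPM here are of all UMIs.

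The effect of FGF1 differed between microglia and another cluster by a test of the difference itself in 10 genes, of which 9 are given here. Against the macrophages of cluster 16, the log2 differences in effect were 8.52 for Saa3 and 5.52 for Ms4a7. Against the astrocytes of cluster 1 they were 2.89 for Cd83, 1.46 for Ifrd1, 1.40 for Dusp1, 1.34 for Cdkn1a, 1.02 for Neat1 and 0.99 for Actb, and -1.41 for Cldn10.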

How the results depend on the processing

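The 7 calls between FGF1 and vehicle became 9 with RLE scaling and 6 with a stricter filter or without cells holding macrophage UMIs. They became 18 with DESeq2 (6 shared), 96 with no low-count filter (71 higher, 25 lower, 5 shared), 14 with batch as a term (5 shared), 41 at an FDR of 0.1 and 0 among cells within the 20% limits. Of the alternatives chosen after the data were seen, cells without astrocyte markers, scaling on microglia genes and genes at least as high as in other cells each gave 0, and leaving out batch 3 gave 31. Leaving out single mice gave 0 to 60 calls, with 0 without FGF1 mouse 7 or 21 or vehicle mouse 20, 25, 27 or 29, 2 without FGF1 mouse 10, 3 without FGF1 mouse 6, 18 without FGF1 mouse 28, 40 without vehicle mouse 22 and 60 without vehicle mouse 35. The cause of these shifts was not tested. The difference from macrophages gave 0 to 2 calls without single mice (0 without FGF1 mouse 6 or vehicle mouse 22, and 1 without FGF1 mouse 7 or vehicle mouse 20, 25 or 35), and that from astrocytes gave 1 to 17. The difference in share of microglia ranged from -0.3849 to 1.68 percentage points without single mice, and turned negative without FGF1 mouse 6 alone. None of the 7 called genes and of the 10 nearest to the threshold on each side changed direction in the alternatives that tested it, while Cd74 turned from -1.47 to 1.96 without vehicle mouse 22 and to 0.99 without batch 3. With no low-count filter edgeR also called members of lists that held 0 calls. Among them were 3 of 10 of antigen presentation, 3 of 15 phagocytic receptors, 2 of 14 chemokines and 2 of 15 of NF-kB. Over the 2676 genes of the main fit it called 27 higher and 17 lower. By replicate number, no paired analysis was possible because the whole-cell groups share no numbers. By the deposited batches the mice were paired, and that paired fit is the one with batch as a term and 14 calls. With 40 microglia in the smallest library and 2676 genes past the filter, low transcripts such as Spp1 could not be tested at this depth.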
